A study of Mus musculus with 19 samples.

Results

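The genes described here are 9 transcription factors of 3 families: the zinc finger factors Zic1, Zic2, Zic4 and Zic5, the homeobox factors Otx1 and Otx2, and the POU homeobox factors Pou3f1, Pou3f2 and Pou3f3. They were taken by name from a table of 24016 mouse genes, and all 9 were in it. The factors were chosen because members of each family are used both in the primed epiblast and in the neural lineage, and the comparison asked in which of the measured cells each one was transcribed and which proteins lay at its start site. The study asked how the nucleoporin Nup153 acts on gene silencing in embryonic stem cells (ESC). Its 19 samples were 5 RNA-seq libraries, 8 ChIP-seq libraries including an input, and 6 DamID-seq libraries, in which a protein fused to a DNA methylase marks the DNA it comes near.

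The ESC were of the E14 line, established mouse ESC, cultured on irradiated mouse embryonic fibroblasts, so feeder RNA can be in the libraries. The control ESC (1 RNA library) had been transduced with a lentivirus carrying a non-target hairpin. The knockdown ESC carried shNup153 #2 in 1 library and shNup153 #4 in the other. All transduced ESC had been selected in puromycin at 2 µg/ml, for at least 4 days in the knockdown and its control. The neural progenitors (NeuP, 2 RNA libraries) carried no hairpin and had been made by way of embryoid bodies, Noggin at 0.5 µg/ml, then FGF2 and EGF at 20 ng/ml each; their line was not given in the sources used here. NeuP and ESC therefore also differed in feeders, medium, virus and selection, and these cannot be told apart from the cell state. Peak lists covered Cbx7 in control ESC, Ring1B in control ESC, both knockdowns and NeuP, Oct4 in control and hairpin #2 ESC, and DamID of Oct4 and of Nup153 in ESC that expressed the fusion protein.

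ZIC factors are zinc finger proteins related to the fly gene odd-paired; they act in the dorsal neural tube and cerebellum, and Zic2 and Zic5 are also known from pluripotent cells. OTX factors specify forebrain and midbrain, and Otx2 moves pluripotent cells from the naive to the formative and primed epiblast state. The POU class III factors share the octamer-binding domain with Oct4 and act in neural progenitors, and Pou3f1 (Oct6) is also a factor of the primed epiblast. Polycomb repressive complex 1 (PRC1), which is found at silent developmental genes, contains Ring1B, a ubiquitin ligase of histone H2A, and can contain Cbx7, which binds methylated histone H3.

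The stretches before the start sites of the members whose RNA differed most between the cell types, as RefSeq places them in the mouse build GRCm38.p6, are given as the sequence context of these genes. The peaks were placed by the mm9 starts of the RNA table, and no coordinates were converted between the builds. Each is the 250 bases upstream, 5′ to 3′ on the gene's strand, in lower case, with capitals for a match to 1 of 3 short core motifs. The core searched for OTX factors, on both strands, was TAATCC. The core searched in the same way for POU factors, part of the octamer, was ATGCAAA. For ZIC factors the letters CAGCAGG were searched, also on both strands, and no matches overlapped. The stretches lie at chr1:42695518-42695767 on the plus strand (Pou3f3), chr4:22488367-22488616 on the minus strand (Pou3f2), chr9:91365769-91366018 on the minus strand (Zic1) and chr14:48665110-48665359 on the minus strand (Otx2, the third of 4 RefSeq starts).
Pou3f3: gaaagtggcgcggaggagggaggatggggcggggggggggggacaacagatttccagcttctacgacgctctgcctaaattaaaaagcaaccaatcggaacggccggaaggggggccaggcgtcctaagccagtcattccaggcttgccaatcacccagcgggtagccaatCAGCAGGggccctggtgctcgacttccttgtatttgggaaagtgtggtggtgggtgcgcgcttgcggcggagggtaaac
Pou3f2: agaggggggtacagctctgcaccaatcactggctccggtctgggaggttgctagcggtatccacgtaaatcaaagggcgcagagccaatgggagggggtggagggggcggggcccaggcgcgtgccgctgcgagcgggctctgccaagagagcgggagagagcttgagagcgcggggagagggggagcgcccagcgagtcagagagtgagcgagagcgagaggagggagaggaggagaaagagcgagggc
Zic1: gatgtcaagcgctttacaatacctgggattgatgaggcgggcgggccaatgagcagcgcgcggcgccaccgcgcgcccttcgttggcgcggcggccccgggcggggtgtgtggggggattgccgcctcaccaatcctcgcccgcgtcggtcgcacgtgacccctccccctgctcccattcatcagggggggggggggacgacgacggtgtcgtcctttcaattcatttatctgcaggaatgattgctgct
Otx2: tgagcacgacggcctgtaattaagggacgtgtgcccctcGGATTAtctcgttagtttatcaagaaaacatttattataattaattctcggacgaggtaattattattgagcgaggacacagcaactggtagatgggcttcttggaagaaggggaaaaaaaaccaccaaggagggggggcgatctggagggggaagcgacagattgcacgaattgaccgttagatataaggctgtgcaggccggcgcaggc

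Of the 9 members, 6 had a RefSeq window of 300 bases, from 250 before to 50 after the start; Zic2, Otx1 and Pou3f1 had none in the table used. Pou3f3 held the ZIC core, starting 79 bases before its start. The third Otx2 window held the OTX core on the reverse strand, starting 211 bases before its start; which of the 4 Otx2 windows belongs to the transcript of the RNA table was not determined. The windows of Pou3f2, Zic1, Zic4 and Zic5 and the other Otx2 windows held none of the cores. Over 27025 genes, 7.16% held the OTX core, 4.59% the POU core and 10.4% the ZIC core, so a match is a description of letters and not a site. The ratio of observed to expected CpG was 0.969 at Zic1, 0.824 at Pou3f2 and 0.699 at Pou3f3, where the median over all genes was 0.389 and the upper quartile 0.754. It was 0.891 in the third Otx2 window and between 0.463 and 0.541 in the other Otx2 windows, 0.546 at Zic4 and 0.510 at Zic5.

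The RNA values were FPKM, which scale fragments to the length of the transcript and the depth of the library, and levels of different genes are compared here on that per-length scale. Depth, recovered from the steps of the table, was 24.3 to 32.2 M reads per library. RNA of Nup153 itself stood at 39.4 FPKM in control cells, 20.9 and 17.4 in hairpins #2 and #4, and 12.8 and 29.1 in NeuP. Both hairpins were lower than the control, but the change of -1.01 ± 0.55 (SE) on the log2 scale did not pass (limma, Benjamini-Hochberg adjusted p = 0.897). Pou5f1, which encodes Oct4, was at 476 to 543 FPKM in the 3 ESC libraries and at 1.99 and 1.65 in NeuP, and the progenitor gene Fabp7 was at 0 to 1.66 in ESC and at 2454 and 3143 in NeuP. Not every progenitor marker set NeuP apart: Sox1 was at 0.948 to 1.84 FPKM in ESC and at 2.16 and 1.82 in NeuP, Msi1 at 15.3 to 17.5 and at 21.6 and 10.7, and Nr2e1 at 0 in ESC and at 0.106 and 0.026 in NeuP.

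Changes were tested with limma on log2(FPKM + 1), a scale that understates changes of low genes, for genes at 1 FPKM or more in at least 1 library. Of the members 6 qualified (Zic1, Zic2, Zic5, Otx2, Pou3f2 and Pou3f3), while Zic4, Otx1 and Pou3f1 stayed below 1 FPKM in all 5 libraries and are given as levels. Zic1, Pou3f2 and Pou3f3 reached 1 FPKM in NeuP alone and Zic5 and Otx2 in ESC alone, so counts over the tested members describe them and lend no support. The NeuP values lay above all 3 ESC libraries for 3 tested members (Zic1, Pou3f2 and Pou3f3), as for 31.4% of tested genes. They lay below all 3 for 2 (Zic5 and Otx2), as for 46.4% of tested genes, and overlapped for Zic2. Against the control library limma called the same 3 members higher and the same 2 lower; 18.3% of tested genes were called higher and 24.9% lower. The median log2 change was 0.87 over the 6 tested members and -0.26 over all tested genes, and that all-gene median moved to -0.06 with quantile normalization.

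Only 1 control library existed, so its spread was taken to equal that of the other groups, and the hairpins counted as 2 replicates of 1 knockdown group. Separate cultures are not named in the labels, and p-values then measure only the spread between these samples, which may be technical. NeuP were compared with the control and with the knockdown, and the knockdown with the same control, so these comparisons share libraries. In bulk RNA, fewer cells of a type and less RNA per cell cannot be told apart.

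The ZIC members differed from one another: in NeuP Zic1 rose, Zic5 fell, Zic2 did not pass the test and Zic4 stayed near 0. Zic1 (NM_009573, chromosome 9, 91255183 to 91260637, minus strand, mm9), a factor of the dorsal neural tube and cerebellum, was at 0.071 FPKM in control ESC, 0.249 and 0.176 in hairpins #2 and #4, and 3.46 and 1.40 in NeuP replicates 1 and 2. Both NeuP libraries lay above every ESC library, although the replicates themselves differed. Zic1 was 34.2-fold higher in the NeuP mean than in the control, with a log2 change of 1.61 ± 0.42 (SE, limma, Benjamini-Hochberg adjusted p = 0.0498). It was also higher than in the knockdown, by 1.43 ± 0.35 (adjusted p = 0.0357, limma). The call was close to the threshold and was lost against the control when hairpin #2 or hairpin #4 was left out (adjusted p = 0.211 each), and against the knockdown as well (adjusted p = 0.240 and 0.254).

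Zic4 (NM_009576, chromosome 9, 91263810 to 91284186, plus strand, mm9) is read away from Zic1, with 3173 bp between their starts, and the pair are known for their role in cerebellar development. Its RNA was 0 in all 3 ESC libraries and 0.274 and 0.030 FPKM in NeuP, which were 36 and 3 reads. In ESC, 0 reads allowed a level of up to 0.0236 to 0.0290 FPKM (3 reads; counting error only). RNA of Zic4 was thus detected in NeuP alone, at a level below that of Zic1 in the same libraries.

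Zic2 (NM_009574, chromosome 14, 122874606 to 122879550, plus strand, mm9), needed for forebrain midline formation and also a factor of pluripotent enhancers, was present everywhere. Its level was 4.32 FPKM in the control, 6.59 and 5.11 in hairpins #2 and #4, and 5.85 and 3.96 in NeuP. The NeuP replicates lay on either side of the control, so the cell types overlapped. The log2 change in NeuP was 0.13 ± 0.30 against the control and -0.22 ± 0.24 against the knockdown, and neither passed (limma, Benjamini-Hochberg adjusted p = 0.736 and 0.472).

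Zic5 (NM_022987, chromosome 14, 122858382 to 122864880, minus strand, mm9) starts 9726 bp from Zic2, is read away from it, and acts in neural crest formation. It was at 0.712 FPKM in control ESC, 1.15 and 0.874 in hairpins #2 and #4, and 0.118 and 0.121 in NeuP. Every NeuP value was under every ESC value, and the control level was 5.96-fold that of the NeuP mean. The fall in NeuP was -0.61 ± 0.16 against the control and -0.84 ± 0.13 against the knockdown (SE, limma, Benjamini-Hochberg adjusted p = 0.0479 and 0.0122). With quantile normalization both changes shrank, to -0.14 (adjusted p = 0.546) and -0.17 (adjusted p = 0.361, limma), and no longer passed. With voom, run on reads recovered from the FPKM values, both passed, at -2.51 and -3.00 (limma, adjusted p = 0.0212 and 0.00699). Those reads were 43, 85 and 53 in the control and hairpins #2 and #4, and 9 and 7 in NeuP. Whether the fall of Zic5 passed thus depended on the normalization and, against the control, also on the pseudocount and the filter. The cause was not tested. The neighbours Zic2 and Zic5 thus differed in NeuP, with Zic2 at 4.91 and Zic5 at 0.120 FPKM on average.

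Of the OTX factors, Otx2 (NM_001286483, chromosome 14, 49277352 to 49284784, minus strand, mm9) was the member with the highest mean level in ESC. It was at 5.83 FPKM in control ESC, 8.16 and 9.43 in hairpins #2 and #4, and 0 in both NeuP replicates. The ESC values came from 317 to 545 reads per library and the NeuP values from 0 reads, so the groups did not overlap. Set against 3 reads in the shallower NeuP library (0.0577 FPKM), Otx2 was at least 101-fold lower in NeuP than in the control and at least 152.5-fold lower than in the knockdown mean. The fitted log2 changes were -2.77 ± 0.17 and -3.29 ± 0.14 (SE, limma, Benjamini-Hochberg adjusted p = 0.00306 and 0.00128), and they depend on the pseudocount because NeuP were at 0. In these progenitors Otx2, which in the embryo continues from the epiblast into forebrain and midbrain, was not detectable at this depth.

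Otx1 (NM_011023, chromosome 11, 21894767 to 21901654, minus strand, mm9), a factor of cortical development, was low in all cells. It was at 0.685 FPKM in control ESC, 0.752 and 0.571 in hairpins #2 and #4, and 0.452 and 0.161 in NeuP, and was not tested. Both NeuP values were under all ESC values, but they differed more from each other (0.452 against 0.161) than the higher did from hairpin #4.

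Pou3f3 and Pou3f2 rose more in NeuP than any other member. Pou3f3 (Brn1; NM_008900, chromosome 1, 42753991 to 42757054, plus strand, mm9), a factor of cortical and other neural progenitors, was at 0.167 FPKM in control ESC, 0.587 and 0.397 in hairpins #2 and #4, and 25.6 and 30.1 in NeuP. All ESC values were below 1 FPKM and both NeuP values far above them. The NeuP mean was 167-fold that of the control and 56.7-fold that of the knockdown, with log2 changes of 4.63 ± 0.20 and 4.27 ± 0.17 (SE, limma, Benjamini-Hochberg adjusted p = 0.00238 and 0.00120).

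Pou3f2 (Brn2; NM_008899, chromosome 4, 22409242 to 22415513, minus strand, mm9), a partner of Sox2 in neural progenitors, was at 0 in the control, 0.026 and 0.031 FPKM in hairpins #2 and #4, and 8.66 and 6.25 in NeuP. The ESC values were 0, 5 and 5 reads, the NeuP values 1745 and 951. Against 3 reads in the control (0.0189 FPKM) the NeuP mean was at least 395-fold higher, and it was 262-fold that of the knockdown. The log2 changes were 3.06 ± 0.23 and 3.02 ± 0.19 (SE, limma, Benjamini-Hochberg adjusted p = 0.00403 and 0.00202). Without hairpin #2 or #4 the size stayed but the adjusted p of limma was 0.0527 and 0.0525 against the control, and 0.0552 and 0.0543 against the knockdown.

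Pou3f1 (Oct6; NM_011141, chromosome 4, 124334889 to 124337899, plus strand, mm9) did not follow its relatives. It was at 0.511 FPKM in control ESC, 0.576 and 0.183 in hairpins #2 and #4, and 0.093 and 0.493 in NeuP, and was not tested. The values of the cell types overlapped, and both the lowest and a middle value came from NeuP. Per length, Pou3f3 therefore ranked first among the members in NeuP (27.9 FPKM on average), followed by Pou3f2 (7.45), Zic2 (4.91) and Zic1 (2.43). The ranges of the 2 replicates did not overlap between one and the next. The gaps from Pou3f2 to Zic2 (6.25 against 5.85) and from Zic2 to Zic1 (3.96 against 3.46) were smaller than the differences between replicates. Otx1, Pou3f1, Zic4 and Zic5 followed at 0.307, 0.293, 0.152 and 0.120 FPKM, neighbours that overlapped, and Otx2 was last. In the 3 ESC libraries Otx2 (7.81) and Zic2 (5.34) overlapped each other and lay apart from Zic5 (0.911), below which the other members stayed under 0.7 FPKM on average.

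**Figure D1:**
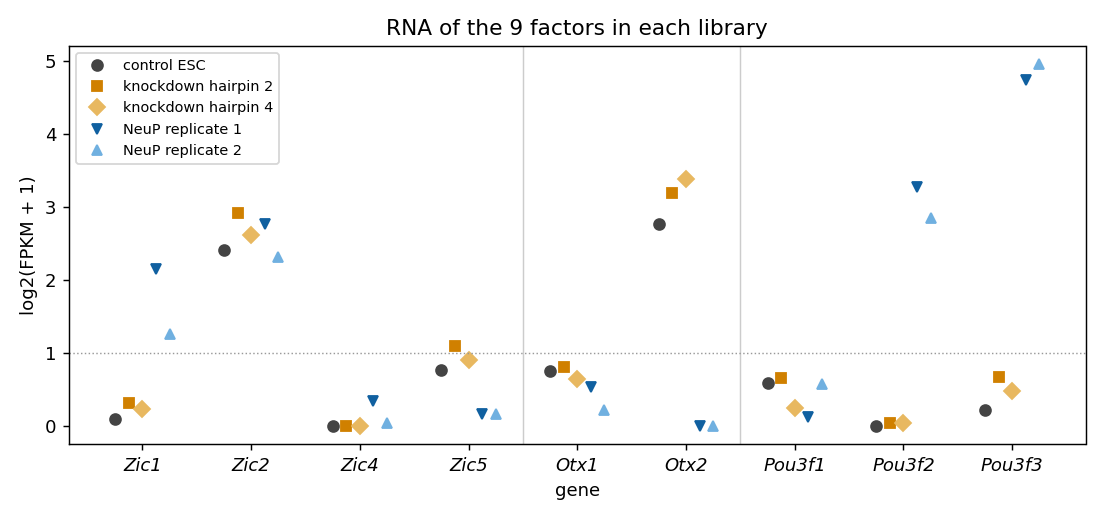
RNA of the 9 factors in each of 5 libraries, as log2(FPKM + 1) on the vertical axis; the dotted line marks 1 FPKM and each point is 1 library. Otx2 is high in the 3 ESC libraries and at 0 in both NeuP replicates, Pou3f2 and Pou3f3 show the opposite, Zic1 shows it at a lower level, and Zic2 overlaps between the cell types.

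In the Nup153 knockdown no member passed the test. All 6 tested members were above the control in both hairpins, as were 55% of all tested genes. Across the 13750 tested genes limma with Benjamini-Hochberg adjustment called 0 (0%), and 814 (5.92%) had an unadjusted p under 0.05. With voom, run on reads recovered from the table, the numbers were 0 and 498. The unadjusted count moved with the NeuP libraries, which share the fit: it was 4680 and 4668 without NeuP replicate 1 or 2 and 4673 with the 3 ESC libraries alone, with 0 called each time and an adjusted p for Otx2 of 0.112, 0.111 and 0.104 (limma; 0.104 to 1 over all alternatives). Otx2 came nearest among the members, with differences from the control of 0.42 and 0.61 (log2) in hairpins #2 and #4, a fitted change of 0.52 ± 0.17 (SE), an unadjusted p of 0.0439 and an adjusted p of 0.825 (limma). Its mean level in the knockdown was 1.51-fold that of the control. The all-gene median was 0.08 in this comparison. The summed level of 9 endoderm and anterior visceral endoderm markers moved the same way as Otx2, from 19.9 FPKM in control cells to 30.1 and 33.8 in the hairpins. This was not particular to endoderm. Most lists described below rose in both hairpins, among them dorsal neural tube and crest (2.83 to 4.19 and 4.44) and naive pluripotency (676 to 786 and 832). The sum of the family relatives fell (557 to 495.5 and 520). Nearly all of it was Pou5f1, at 543 FPKM in the control and 476 and 501 in hairpins #2 and #4. That sum therefore followed a single gene. The neuron list lay on either side of the control. The part of any list in the value of Otx2 was not tested.

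The neural members stayed low in the knockdown. Pou3f3 had a log2 change of 0.35 ± 0.20, Zic1 of 0.18 ± 0.42 and Pou3f2 of 0.04 ± 0.23 (SE, limma, Benjamini-Hochberg adjusted p = 0.917, 1 and 1). For Zic2 and Zic5 the changes were 0.36 ± 0.30 and 0.23 ± 0.16 (adjusted p = 1 and 0.963, limma). None of these passed the test, and the untested Pou3f1 and Otx1 were on either side of the control in the separate hairpins. Without a filter on low values limma called 230 genes (55 higher, 175 lower), none of them a member.

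**Figure D2:**
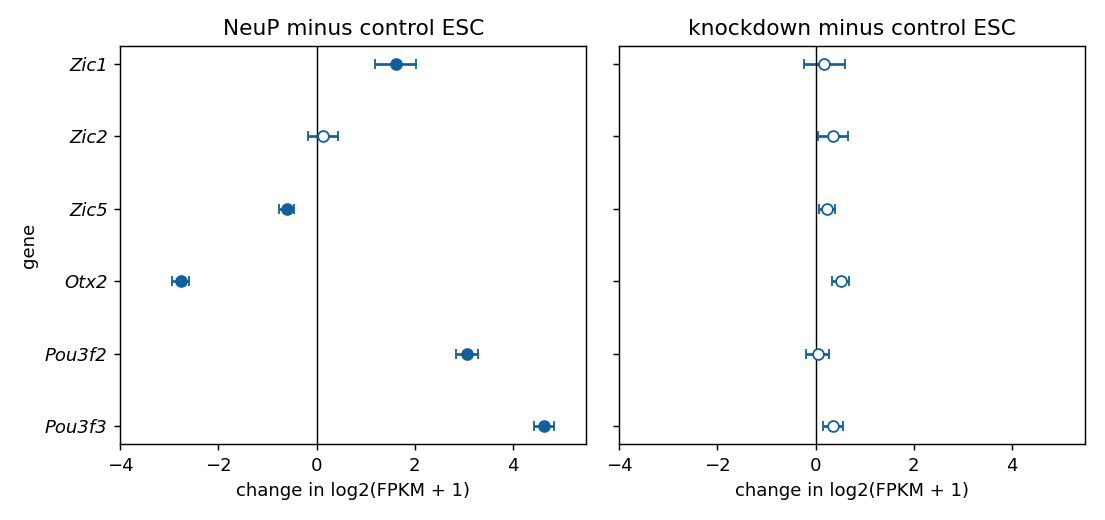
Change in log2(FPKM + 1) of the 6 tested members, NeuP minus control ESC on the left and knockdown minus control on the right; bars are 1 standard error and filled points passed limma at an adjusted p under 0.05. On the left Pou3f3 (4.63), Pou3f2 (3.06) and Zic1 (1.61) are to the right of 0 and Otx2 (-2.77) and Zic5 (-0.61) to the left; on the right all 6 points are open.

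PRC1 was listed at the start sites of nearly all of these genes in ESC. Within 2 kb of the start in the RNA table, 8 of the 9 members had a Cbx7 peak in control ESC, against 13.2% of all genes. Ring1B peaks were listed at 6 members in control ESC (8.1% of genes), at 8 in hairpin #2 (24%) and at 8 in hairpin #4 (9.24%). The member without any was Zic5. In NeuP, Ring1B peaks were listed at 2 members, Otx2 and Pou3f2, where 10.4% of all genes had one. Each ChIP list came from 1 library and gives positions only, so no error between replicates is available and presence was not tested. The libraries differed in depth, from 4.99 M tags for Ring1B in control ESC to 9.95 and 30.8 M in hairpins #4 and #2 and 33.2 M in NeuP. The part of depth in these counts, and in the peak widths given below, was not tested.

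Zic1, Otx1, Otx2, Pou3f1, Pou3f2 and Pou3f3 had all 4 ESC peaks, a pattern shared by 582 genes (2.42%). Of those 582 genes, 210 (36.1%) also had Ring1B in NeuP, as had 2 of the 6 members, close to that share. The 2 members that kept it went opposite ways in RNA: Otx2 was called lower and Pou3f2 higher. Among genes with all 5 peaks, 111 were tested and 45.9% were called higher and 18% lower in NeuP than in the control; among the 201 tested genes with the 4 ESC peaks alone, 36.3% were called higher and 24.4% lower.

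At Otx2 the Ring1B domain in NeuP ran from 49281403 to 49289915 on chromosome 14 (mm9), 8513 bp across the start site, and was the third widest of 14556 peaks in its list. In ESC, Cbx7 covered 7503 bp (49282449 to 49289951) and Ring1B 2091 bp in the control, 6032 bp in hairpin #2 and 1654 bp in hairpin #4. Thus the widest Ring1B domain at Otx2 was in the cells without Otx2 RNA, which also had the deepest Ring1B library (33.2 M tags, against 30.8 M in hairpin #2). The ESC with 5.83 to 9.43 FPKM also had Cbx7 and Ring1B peaks there. Otx2os1, the noncoding gene whose start lies 4179 bp from that of Otx2, was at 0 FPKM in both NeuP replicates and at 0 to 0.13 in ESC.

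At Pou3f2, Cbx7 spanned 16114 bp (22410595 to 22426708 on chromosome 4, mm9) across the start in control ESC, where its RNA was 0. Ring1B was listed there as 2 peaks of 917 and 501 bp in the control, as 1 domain of 14946 bp in hairpin #2, and as peaks of 2000 and 967 bp in hairpin #4. In NeuP a Ring1B peak of 1729 bp (22415328 to 22417056) lay across the start, in cells with 6.25 to 8.66 FPKM of Pou3f2. Presence of a Ring1B peak at the start therefore did not separate the cells with Pou3f2 RNA from those without.

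At Pou3f3, Cbx7 peaks of 4864 and 2763 bp flanked the start in control ESC, with the nearest edge 361 bp upstream. Ring1B peaks of 792 bp (control), 4879 and 3079 bp (hairpin #2) and 860 bp (hairpin #4) were listed in the same window. In NeuP none was within 2 kb, and the nearest, 42750704 to 42751634 on chromosome 1, ended 2357 bp upstream, just outside the window. That peak lay inside Pantr1, a noncoding gene read away from Pou3f3 whose start is 2321 bp from it. Pantr1 RNA was 0 FPKM in control cells, 0.178 and 0.579 in hairpins #2 and #4, and 120 and 135 in NeuP (log2 change from the control 7.0 ± 0.26, SE, limma, Benjamini-Hochberg adjusted p = 0.00238). On the other side 2900092D14Rik, 3190 bp from the start of Pou3f3, rose from 0.014 to 13.7 and 14.8 FPKM (3.91 ± 0.16, adjusted p = 0.00238, limma). It is read on the same strand and starts at 42757181, just past the end of Pou3f3 at 42757054. Whether its reads come from transcripts that run on from Pou3f3 was not tested. RNA assigned to 3 adjacent genes thus rose together in NeuP.

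Zic1 and Zic4 shared their peaks, because their windows overlap. Cbx7 domains of 16156 bp (91244667 to 91260822 on chromosome 9, mm9) and 4453 bp lay over the starts of Zic1 and Zic4, and 1 Ring1B domain of 12936 bp in hairpin #2 covered both starts. In the control the Ring1B peak nearest to both was 501 bp wide, 1312 bp downstream of the Zic1 start and 4485 bp from that of Zic4, so Zic4 counted as without one there. In NeuP the nearest Ring1B peak was 9677 bp from the start of Zic1. Around Zic2, a Cbx7 domain of 10222 bp began 869 bp downstream of the start, Ring1B peaks of 664 and 501 bp were listed in hairpins #2 and #4, and the nearest control peak was 6787 bp away. For Zic5 the Ring1B peaks of the 3 ESC lists were 2144, 2274 and 2182 bp upstream of the start and the Cbx7 peak 2665 bp, all just past the limit of the window. With a window of 5 kb Zic5 had all 4.

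Otx1 had the widest ESC domains among the members, 16601 bp for Cbx7 and 17211 bp for Ring1B in hairpin #2. Over the same stretch the other ESC lists held several narrower Ring1B peaks, the widest 2398 bp in the control and 4501 bp in hairpin #4. In NeuP Ring1B peaks lay 5788 and 7015 bp downstream of its start and none nearer. Pou3f1 had Cbx7 peaks of 501 and 2784 bp, a control Ring1B peak of 501 bp, and Ring1B peaks of up to 2829 bp in hairpin #2 and of 1854 bp in hairpin #4. Its nearest Ring1B peak in NeuP was 32666 bp away. A Ring1B peak within 2 kb was thus listed in ESC but not in NeuP at Pou3f3 and Zic1, whose RNA rose, and also at Otx1 and Pou3f1, which stayed below 1 FPKM. Zic2 and Zic4 had one in both hairpins but neither in the control nor in NeuP. RNA of Zic2 overlapped between the cell types, and Zic4 stayed below 1 FPKM.

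**Figure D3:**
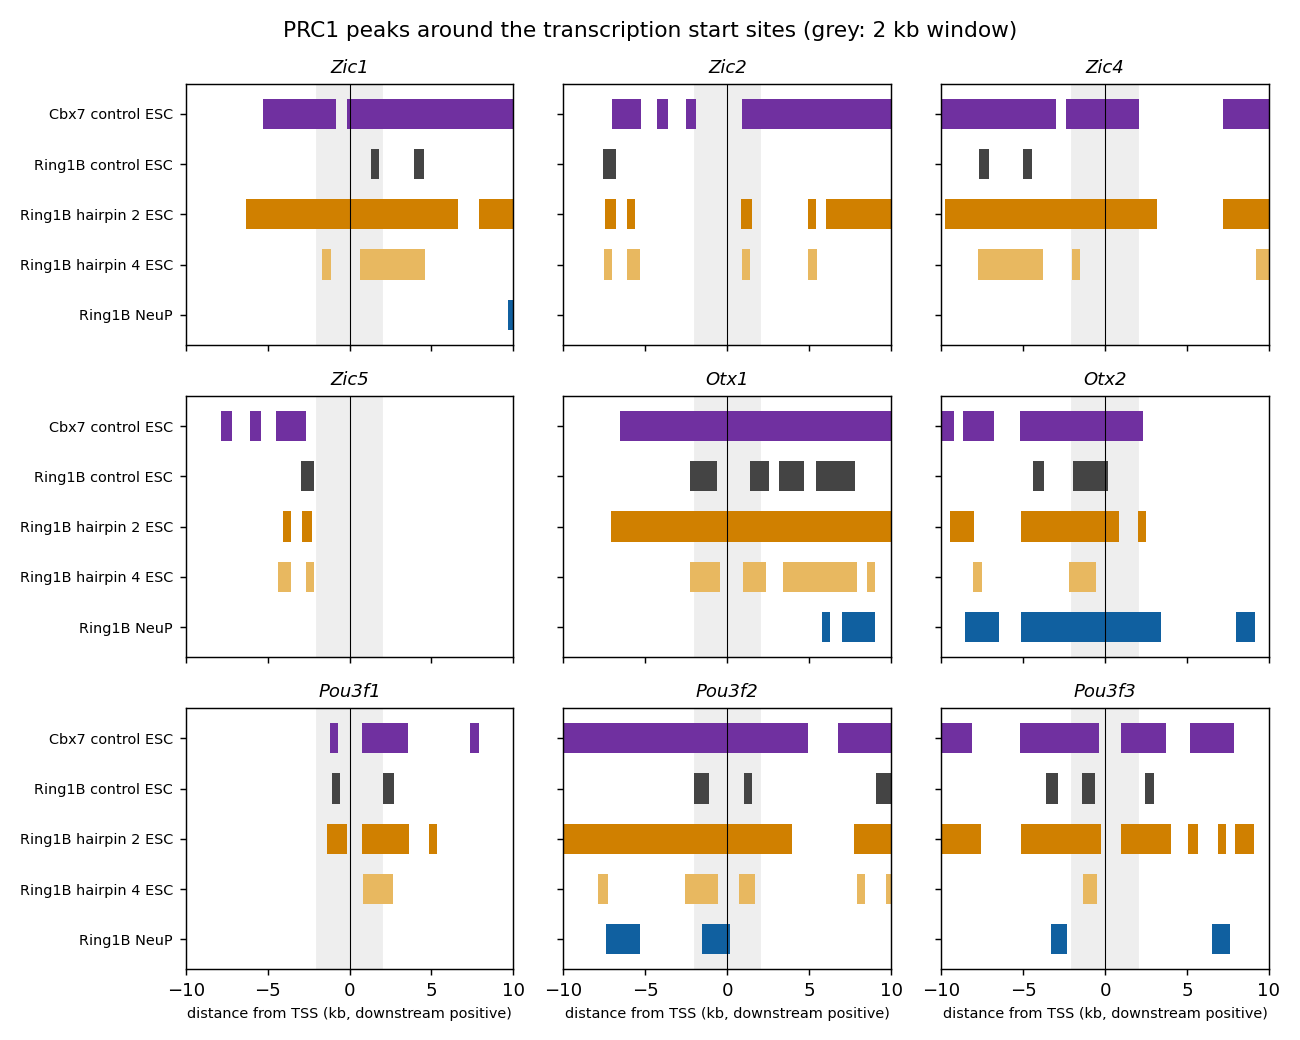
Cbx7 and Ring1B peaks around the start of each member, from 10 kb before to 10 kb after it along the gene's direction; each bar is a deposited peak, cut at the edge of the plot where it runs on, and the grey band is the 2 kb window. In NeuP the bar crosses the start at Otx2 (8513 bp) and Pou3f2 (1729 bp) alone.

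No member had a peak of the pluripotency factor Oct4 or of Nup153 near its start. Oct4 ChIP peaks in control and hairpin #2 ESC were at 0 of 9 members, as at all but 0.733% and 0.712% of genes, and the DamID lists of Oct4 and Nup153 were also at 0 members (2.8% and 5.91% of genes), shares at which 0 of 9 says little. The nearest Oct4 ChIP peak in control ESC was 31.5 kb from Zic5, 41.2 kb from Zic2 and 35.9 kb from Otx2. The share of all genes with an Oct4 peak at such distances was not determined, so the distances are description only. Hairpin #2 placed peaks 31.4, 41.2 and 35.9 kb from the same genes, and Oct4 DamID 32.0, 41.7 and 35.3 kb. The ChIP peaks near Zic5 and Zic2 are 1 shared peak, downstream of Zic5 and upstream of Zic2. For the other 6 members the nearest control Oct4 peak was 606 to 895 kb away.

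Relatives outside the 9 members showed both courses as well. Of 14 relatives, 7 were tested, with 2 higher and 3 lower in NeuP than in the control and a median log2 change of -0.62. Pou3f4 (Brn4), the fourth gene of class III, was at 0 to 0.036 FPKM in ESC and at 20.1 and 12.8 in NeuP (4.09 ± 0.31, SE, limma, Benjamini-Hochberg adjusted p = 0.00405), and Pou6f1 rose by 2.98. Pou5f1 had a change of -7.59 and Pou2f3 of -1.43, while Pou2f1 (-0.62) and Pou4f1 (0.05) did not pass. Crx, Dmbx1, Pou1f1, Pou2f2, Pou4f2 and Pou4f3 stayed below 1 FPKM in all 5 libraries. In NeuP the class III genes Pou3f2, Pou3f3 and Pou3f4 thus rose while Otx2 fell. Zic5 was lower in NeuP, but whether its change passed depended on the setting.

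Lists of genes of the primed epiblast and of the neural lineage placed the members in context; they are described by counts beside 18.3% of all tested genes higher and 24.9% lower. Of 13 formative and primed epiblast genes, 11 were tested, with 7 lower and 2 higher in NeuP and a median of -2.15. Tdgf1, a Nodal co-receptor, and Utf1, a chromatin factor of pluripotent cells, had changes of -5.69 and -5.10. Cdh2 (N-cadherin, 5.21) and Sox3 (4.04) rose; both are also genes of neural progenitors. Fgf5, a defining gene of the primed epiblast, was at 0.033 to 0.107 FPKM in ESC. All 11 naive pluripotency genes were lower (median -3.81), among them Nanog (-7.19) and Esrrb (-6.50), and their summed level was 676 to 832 FPKM in ESC and 6.70 to 7.56 in NeuP. The ESC with Otx2 RNA thus also carried naive genes at high levels, with Fgf5 near 0. Fgf5 did not stand for its list, as the 13 formative and primed epiblast genes summed to 210 to 273 FPKM in ESC. The same list summed to 144 and 134 FPKM in NeuP. Tead2 was a large part of both, at 50.7 to 57.6 FPKM in ESC and 47.0 and 58.3 in NeuP. The sum therefore does not define a primed state. In ESC Tdgf1 was at 48.0 to 104.5 FPKM and Utf1 at 34.5 to 44.05, while Sox3 and Cdh2 were, like Fgf5, below 1 FPKM.

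Of 17 neural progenitor genes, 16 were tested, 10 were higher and 0 lower, with a median of 3.63; Fabp7 (11.44), a lipid-binding protein of neural progenitors, and Olig2 (7.84), a factor of ventral and glial progenitors, had the largest changes. Region markers were uneven. Of 12 hindbrain and spinal cord genes 9 were tested, with 7 higher and 1 lower (median 1.38), led by Hoxa2 (4.20), Egr2 (3.80) and Hoxa3 (2.26), genes that pattern the hindbrain. Of 17 forebrain and midbrain genes 7 were tested, with 3 higher and 3 lower; En1 (2.70) and En2 (2.54), genes of midbrain and anterior hindbrain, and Lhx2 (1.52) rose, and Hesx1 (-2.31) fell. The forebrain gene Six3 was at 0 and 0.011 FPKM in NeuP. The summed level was 8.32 to 11.9 FPKM in ESC and 63.7 to 73.6 in NeuP for the hindbrain list, and 8.07 to 9.34 and 18.5 to 20.5 for the forebrain and midbrain list. Of 11 dorsal neural tube and crest genes 4 were tested and Pax3 (3.74) and Tfap2a (2.02) were higher, and Msx2 (-0.81) was lower.

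Other cell types could also contribute RNA to these libraries. Of 9 neuron genes 8 were tested, with 3 higher (Map2 6.78, Dcx 2.96 and Syp) and 1 lower (Stmn2 -5.55), and their summed level was 83.2 to 89.6 FPKM in ESC and 141 to 260 in NeuP. Of 8 myelinating glia genes 5 were tested, with 0 higher and Mbp lower, and Mog was at 0 in both NeuP replicates. Of 9 feeder fibroblast genes 8 were tested, with Col3a1 (5.08) and Thy1 higher and Fn1 (-3.14) and Col1a2 lower. Their summed levels were 140.8 to 152.6 FPKM in ESC and 50.9 to 90.9 in NeuP. Fn1 alone made up 131 to 138 FPKM of the ESC sums, and 15.4 and 12.6 of those in NeuP. Col3a1 made up 24.9 and 46.1 FPKM of the NeuP sums. The sums therefore followed single genes and do not rank the cells by feeder RNA. Endoderm genes summed to 0.352 and 0.801 FPKM in NeuP, and 4 of 6 tested were lower. No member is on these lists, and their part in the members' values was not tested.

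**Figure D4:**
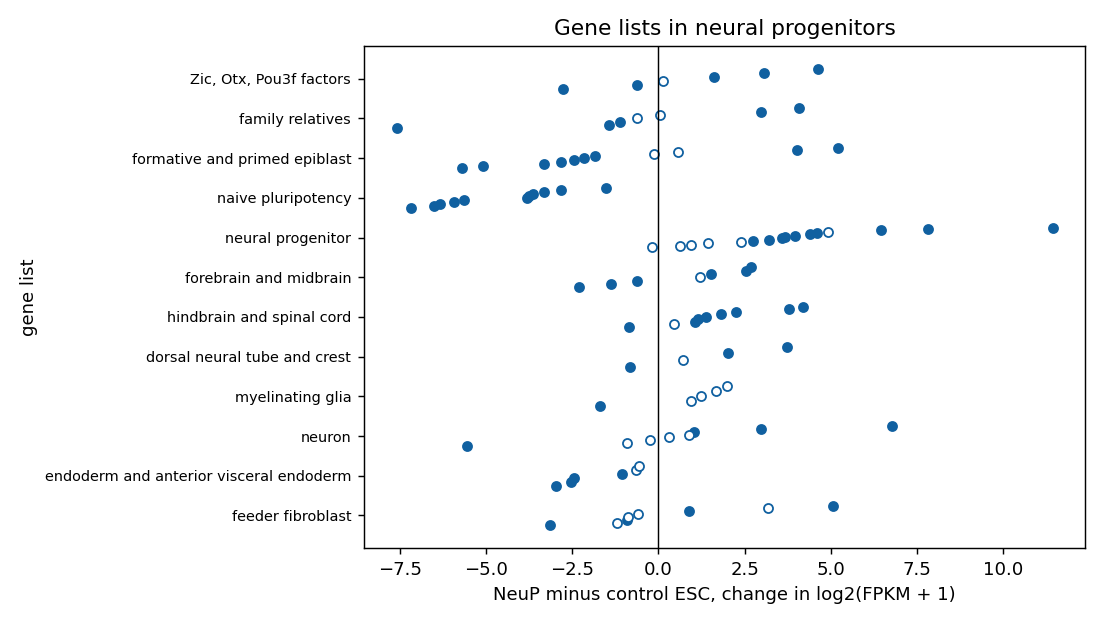
Change in log2(FPKM + 1) between NeuP and control ESC for each tested gene of the members and of 11 lists; each point is a gene, filled where limma passed at an adjusted p under 0.05. The members and their relatives spread to both sides of 0, all naive pluripotency genes lie to the left, and the neural progenitor genes that passed lie to the right.

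The genes most like each tested member over the 5 libraries were found by the Euclidean distance between centred log2(FPKM + 1) profiles, a description over 5 points. Otx2 was nearest to Cdh3, the P-cadherin gene (distance 0.102; 6.47, 8.48 and 9.66 FPKM in the control and hairpins #2 and #4, 0.008 and 0 in NeuP), and then to Elf4 (0.129). Pou3f2 was nearest to Sardh (0.0558) and Celrr (0.0739), and Pou3f3 to Pik3r1 (0.244) and Alcam (0.264). Zic1 was nearest to Bach2 (0.1003) and Ggt5 (0.106), which shared its higher value in NeuP replicate 1. Zic5 was nearest to Sh3yl1 (0.0814) and Slc2a7 (0.1002), and Zic2 to Irak4 (0.0858) and Pcx (0.110).

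The comparison of NeuP with the knockdown gave the same members in both directions, 3 higher (Zic1, Pou3f2 and Pou3f3; 19.5% of genes) and 2 lower (Zic5 and Otx2; 31.7%). Over all genes its calls were 2680 higher and 4355 lower, a split that moved to 3539 and 3447 with quantile normalization. Neither NeuP comparison turned the direction of any called member under an alternative setting.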

How the data were processed

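The deposited RNA table gave FPKM per library for 24016 genes, 1 transcript each, in mm9; per the submitters' processing notes the authors' tools were CASAVA 1.8.2, STAR 2.2.0c, Bowtie2 2.1.0, HOMER 4.6 and edgeR, with no version for the last. Peaks were deposited as start and end positions; HOMER findPeaks made each ChIP list from 1 library against an ESC IgG library, also for NeuP, per the file headers. The 2 DamID lists each stand for 2 replicates, with no account of how they were combined in the sources used here.

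Low FPKM values multiplied by transcript length were whole multiples of 1 read (within 0.1 of a read for 100% of 2561 to 3260 low values per library, transcripts under 2500 bp), which gave depth and reads per gene. The deposited FPKM were tested with limma 3.58.1 (R 4.3.3, limma-trend) as log2(FPKM + 1) for the 13750 genes that reached FPKM 1 in any library, in a single fit of the 5 libraries with 3 groups. Tests were two-sided with Benjamini-Hochberg adjustment over all tested genes at 0.05, with 2 residual degrees of freedom and 1.74 from moderation. The procedure was tested on simulated data. A peak counted for a gene when it shared at least 1 bp with the 2 kb on either side of its start (Python 3.11.15, pandas 2.3.3, numpy 2.4.6, figures by matplotlib 3.10.9). Limits for 0 reads use 3 reads and cover counting error only.

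The members and gene lists were chosen with earlier results of these data known. Besides the members, up to 4 genes of a list with the largest absolute changes were named. Family relatives, neighbours within 10 kb and the 2 most alike genes per tested member were named too. Six3, Fgf5, Tead2, Sox1, Msi1, Nr2e1, Msx2, Syp, Mbp, Mog, Thy1 and Col1a2 were named after their values were seen. Some genes of the lists are counted but not reported here by name. Promoter windows were RefSeq's, in GRCm38.p6; no coordinates were converted between builds. Alternatives were other pseudocounts and filters, quantile normalization, voom, leaving out libraries, and other peak windows.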

Additional observations from a re-analysis of the deposited data

How the results depend on the processing

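The control library and each ChIP list had no replicate, which limits every comparison here. No paired analysis was possible because the RNA groups compared share fewer than 2 replicate numbers (hairpins 2 and 4, NeuP replicates 1 and 2). Of 189 changes of single members under alternative settings, 173 kept their side of the threshold and 16 no longer passed; the cause was not tested. No called change turned its sign, but 4 changes of Zic2, which passed nowhere, did: against the control -0.10 without NeuP replicate 1 and -0.11 with the 3 ESC libraries as 1 group, and against the knockdown 0.0001 with quantile normalization and 0.0078 without NeuP replicate 2. Genes called between NeuP and the control numbered 5936, and 1822 to 11245 when each library was left out; between NeuP and the knockdown they numbered 7035, and 1778 to 11577. Members called higher went from 3 to between 1 and 3 in both comparisons when a library was left out, the low value coming without hairpin 2 or hairpin 4, where 1 residual degree of freedom remained. Members called lower went from 2 to 1 against the control with a pseudocount of 5, no filter on low values, a mean FPKM of at least 1 or quantile normalization, and to 1 against the knockdown with a mean FPKM of at least 1 or quantile normalization; Zic5 was the one lost, and under the mean filter it was not tested. Zic1 did not pass against the control with a pseudocount of 5 (0.54, adjusted p = 0.0937, limma) or with no filter (adjusted p = 0.135), nor against the knockdown (0.0630 and 0.104). Zic5 did not pass against the control with a pseudocount of 5 (-0.16, adjusted p = 0.0853, limma) or with no filter (adjusted p = 0.0556). In the knockdown the count of 0 became 230 with no filter on low values. The fitted changes of Otx2 (-5.89 and -1.12), Pou3f2 (6.22 and 1.31) and Pou3f3 (6.71 and 2.67) in NeuP against the control moved with a pseudocount of 0.1 and of 5, by construction for genes near 0 in 1 group. Counting a peak by its centre lowered the members with Cbx7 from 8 to 4 and with Ring1B in hairpin 2 from 8 to 4. A window of 1 kb removed the control Ring1B peak at Zic1 and Pou3f2 and the hairpin 4 peak at Zic4. One of 5 kb added control Ring1B at Zic4, all 4 ESC peaks at Zic5 and Ring1B in NeuP at Pou3f3.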
